A study of Homo sapiens with 4 samples.

Results

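The genes described here are 56 genes of the distal long arm of chromosome 11 (bands 11q23 to q25), out of 26484 gene symbols in a table of poly(A) RNA sequencing of the human melanoma line A375. They were named as genes whose values in knockout library 2 lay mostly above the parental libraries, so they were chosen by the log2(value + 1) of knockout libraries 2 and 8 minus the parental mean. Those differences are therefore given as a description without a test. The questions are which of the genes follow the common shift and which escape it. Neighbouring genes of a chromosome arm mostly have promoters of their own, and their products need share no function. The distal 11q genes include MCAM, an adhesion molecule long used as a melanoma marker, the histone methyltransferase gene KMT2A, the DNA damage checkpoint kinase CHEK1, the adjacent transcription factor genes ETS1 and FLI1, and a row of genes for glycosylation, membrane traffic and protein folding.

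The tested cells were A375 cells in which p53, a transcription factor and tumour suppressor, had been knocked out with CRISPR-Cas9, in 2 libraries that the deposited table numbers 2 and 8. The cells they are set against were the parental A375 line with wild-type p53, in 2 libraries numbered 1 and 2. All were grown in DMEM. Whether replicate libraries stand for different cultures or different clones is not stated in the labels, so any p-value covers the spread among these libraries and nothing wider. Edited cells that kept p53 were not among the libraries, so the effects of p53 loss, of editing and of selecting the edited cells cannot be told apart. Values are gene read counts divided by 1 factor per library (normalized counts).

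Whole reads behind the values totalled 30334054 in knockout library 2 and 32160978 in knockout library 8, against 29230554 and 36331894 in parental libraries 1 and 2. The knockout pair differed more than the parental pair (chi-square per degree of freedom 65.3 against 5.85). SOX10, a transcription factor of the melanocyte lineage, ranged between 25662 and 30033 normalized counts over the 4 libraries, while the pigment cell genes MLANA and TYR were listed at 0 in each. Of the other melanocyte markers, MITF had 849 and 1050 in knockout libraries 2 and 8, against 1645 and 1562 in the parental libraries. SOX10, S100B and S100A1 too lay below both parental libraries in each knockout library, whereas PMEL and CSPG4 lay above both. All 12 melanocyte and melanoma markers summed to 108195 and 99743, against 102958 and 99090. The 6 epithelial markers, mostly KRT18, summed to 7087 and 6804, against 7742 and 7575. Summed over 6 blood cell markers the libraries held 10.7 to 17.5 normalized counts. Summed over 7 fibroblast markers they held 2336 in knockout library 2 and 1384 in knockout library 8, against 1353 and 1299 in the parental libraries, with COL3A1, a defining collagen of fibroblasts, at most at 1.10. The growth factor receptor genes PDGFRA (1033 and 368 in the knockout libraries, against 355 and 284) and PDGFRB (1166 and 764, against 829 and 847) made up most of that sum, while LUM had 31.6 and 165, against 92.1 and 101. Summed over 4 endothelial markers the knockout libraries held 818 and 690, against 467 and 594. Most of that was KDR (742 and 611, against 411 and 532), while CDH5 was at most at 0.977. The part of these differences in the values of knockout library 2 was not tested. In bulk RNA, fewer cells of a kind and less RNA per cell cannot be told apart.

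Of the 56 genes, 54 reached 10 normalized counts in 2 or more libraries and are called measured. The other 2 were THY1, a surface glycoprotein, with 2.10 normalized counts in knockout library 2 and 0 in the other 3 libraries, and ST14, a membrane serine protease, with 5.26 and 4.88 in knockout libraries 2 and 8 against 6.58 and 0.877 in parental libraries 1 and 2. Neither is used further. On the log2(normalized count + 1) scale, knockout library 2 exceeded the parental mean by a median of 0.40 over the 54 measured genes (1.32-fold), and the same median for knockout library 8 was -0.01. Over all 15431 measured genes of the series the medians were -0.0012 and -0.0008. The 54 genes differed by a median of 0.02 between parental libraries 2 and 1 (2 minus 1) and ranged from -0.19 to 0.26, with a median size of 0.06. In 50 of the 54 genes the distance of knockout library 2 from the parental mean was larger than the gap between the parental libraries, as it was in 73.5% of all measured genes.

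Taken 1 gene at a time, 33 of the 54 lay at least 0.3 (log2) above the parental mean and above both parental libraries in knockout library 2, where 17.8% of all measured genes did so. In the other direction 2 of the 54, SORL1 and SIAE, lay at least 0.3 below the mean and below both parental libraries, as 3092 of the 15431 measured genes did. In knockout library 8 the same limits gave 2 higher, C2CD2L and FLI1, against 14.5% of all measured genes, and 2 lower, SORL1 and MCAM, against 14.3%. Set directly against each other, knockout library 2 exceeded knockout library 8 in 49 of the 54 genes (49.5% of all measured genes) and by at least 0.3 in 33 of them (19.6%). No member lay at least 0.3 lower in knockout library 2 than in knockout library 8, as 20.2% of all measured genes did. Since these values chose the genes, the shares are given beside the counts without being read as a test. Fitted as 2 knockout against 2 parental libraries, limma called 0 of the 15431 measured genes at an adjusted p of 0.05 (0.00%), and 903 had an unadjusted p under 0.05 and a higher value, 950 the same and a lower value; edgeR's quasi-likelihood test called 0. DESeq2 called 198 higher and 200 lower (1.21% and 1.22% of the genes it tested). Its calls held 0 of the distal 11q genes among the higher and 1, SORL1, among the lower.

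**Figure D1:**
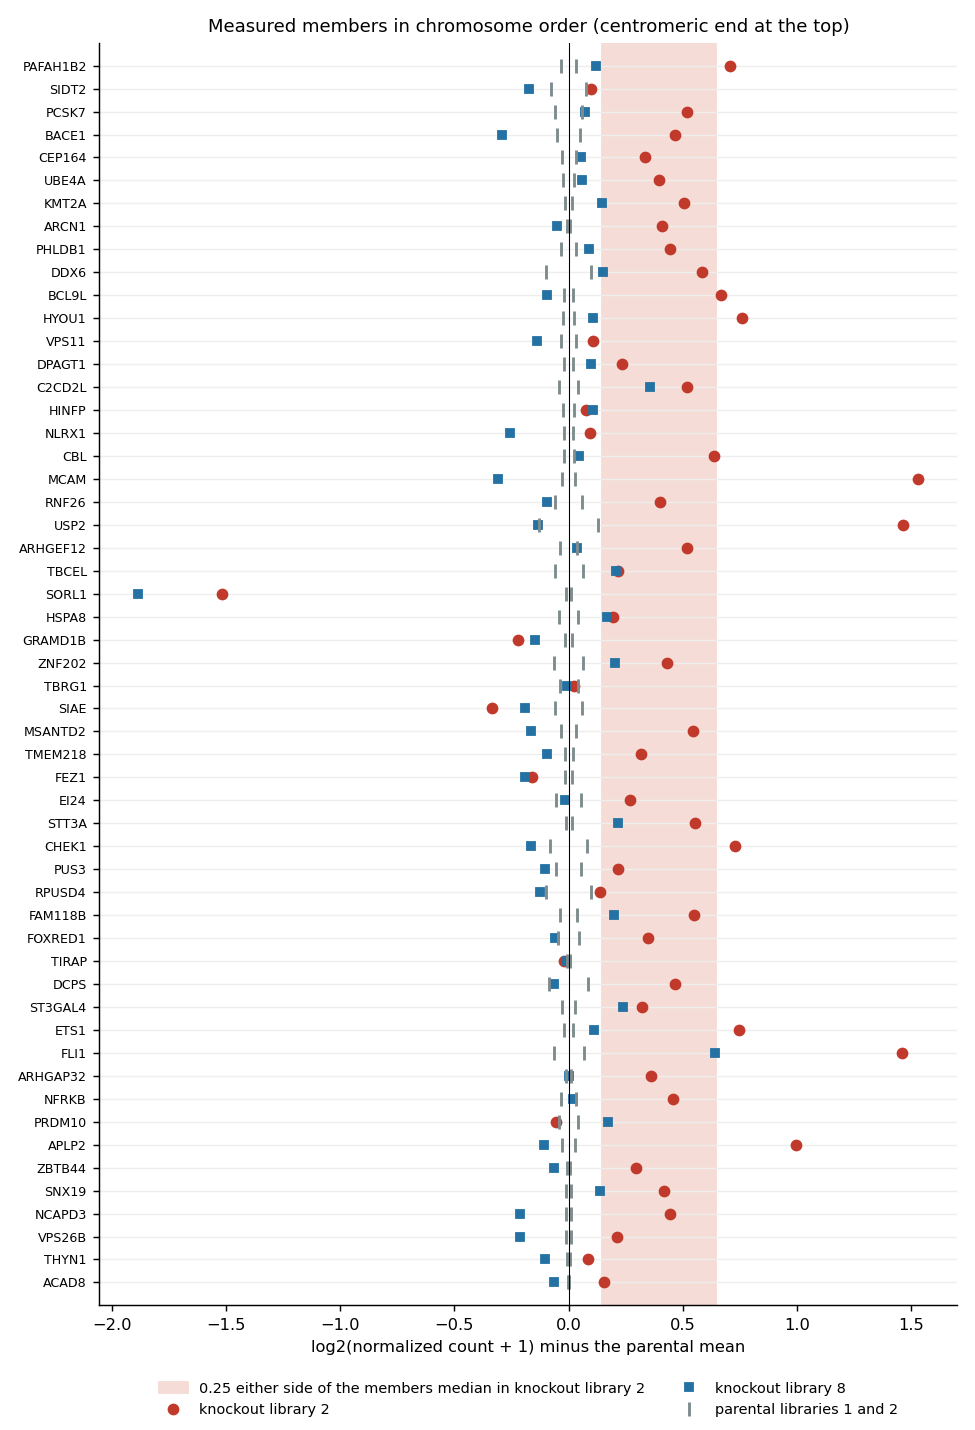
The 54 measured distal 11q genes in chromosome order, with log2(normalized count + 1) minus the parental mean on the horizontal axis for knockout library 2 (red circles), knockout library 8 (blue squares) and the parental libraries (grey ticks). The shaded band covers 0.25 either side of the median of 0.40 in knockout library 2 and holds 32 of the 54 red circles, while the blue squares of most genes lie near the parental ticks.

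A gene was said to follow the common shift if its value in knockout library 2 lay within 0.25 of the median of 0.40. By that limit 32 of the 54 genes (59.3%) followed, 9 lay above the band and 13 below it. The other 32 genes of the same segment with a mean of at least 100 were more scattered. Of them 37.5% lay within 0.25 of their own median of 0.41, and their interquartile range was 0.70 wide. The 54 genes were chosen by these values and had no such limit on the mean, so the difference in scatter is a description only. Over the whole series 61.9% of the 12275 genes with a mean of at least 100 lay within 0.25 of their own median of -0.0035 in knockout library 2. The interquartile range of the 54 genes was 0.37 wide in knockout library 2, and that of those 12275 genes was also 0.37. In knockout library 8 the members were less scattered, with a range 0.24 wide against 0.27 for the 12275 genes. At the upper edge CBL lay just inside at 0.64 and BCL9L just outside at 0.67. At the lower edge ACAD8 lay just inside at 0.16 and RPUSD4 just outside at 0.14. The gene whose values over the 4 libraries came closest to the median pattern was ARHGAP32, followed by ARCN1, ZBTB44, FOXRED1 and CEP164, by the root mean square distance of centred log2 values. ARHGAP32, a GTPase-activating protein, had 2603 normalized counts in knockout library 2 and 2031 in knockout library 8, against 2046 and 2010 in the parental libraries. Only knockout library 2 stands apart there.

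On GRCh38 (GENCODE 29) the genes run from chr11:117144267, the start of PAFAH1B2, to chr11:134265855, the end of ACAD8, over 17.1 Mb. Between these ends lie 104 measured genes, the 54 members and 50 others. The 50 others were not named among the 56 genes, although the choice of the segment itself rested on these libraries. Knockout library 2 had a median of 0.35 over them and knockout library 8 one of -0.03. In knockout library 2, 27 of the 50 lay at least 0.3 above the parental mean and above both parental libraries (17.8% of all measured genes). By the same limits 7 lay lower, as did 3092 of the 15431 measured genes. In knockout library 8, 13 lay higher and 14 lower (14.5% and 14.3% of all measured genes). With a mean of at least 100, 32 of the 50 remained, with a median of 0.41 in knockout library 2. The 683 measured genes in the rest of the chromosome, outside the segment and its flanks, had medians of -0.02 and 0.0074 in knockout libraries 2 and 8.

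The shift was not even along the segment. Cut into 3 groups by order, the 18 genes between PAFAH1B2 and CBL had a median of 0.45 in knockout library 2, the 18 between MCAM and PUS3 one of 0.29 and the 18 between RPUSD4 and ACAD8 one of 0.35. Taken over 21 adjacent genes whose mean reached 100, members or not, the running median in knockout library 2 was above 0 at each of the 84 genes within the segment. It was lowest at SIAE, 7.49 Mb from the start of PAFAH1B2, at 0.02, and highest at THYN1, 17.1 Mb from it, at 0.53. In knockout library 8 the same running median stayed between -0.15 and 0.11, and its lowest point was also at SIAE. Between the parental libraries it stayed between -0.03 and 0.09.

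On the centromeric side the values of knockout library 2 stayed mostly positive just outside the segment and were mostly negative farther out. Of the 20 measured genes before PAFAH1B2, the 10 from PIH1D2 to TMPRSS5 (chr11:112064010-113706373) had a median of -0.46 in knockout library 2 and 9 of them lay below the parental mean, whereas the 10 from ZW10 to SIK3 (chr11:113733187-117098437) had a median of 0.22 and 9 lay above it. In knockout library 8 the medians of these groups were -0.05 and -0.13. PTS, an enzyme of tetrahydrobiopterin synthesis, was at -0.57 in knockout library 2 and ZW10, a kinetochore protein, at 0.28. The running median was lowest on the whole of the chromosome before the segment at PPP2R1B, a phosphatase subunit gene at -5.42 Mb from PAFAH1B2 (negative toward the centromere), where it was -0.50. It was last below 0 at TMPRSS5, at -3.46 Mb. The cut between the groups of 10 was set by their number and falls between TMPRSS5 and ZW10. Past ACAD8, 2 measured genes remain before the end of the chromosome, GLB1L2 at -0.03 and B3GAT1 at 0.68 in knockout library 2.

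**Figure D2:**
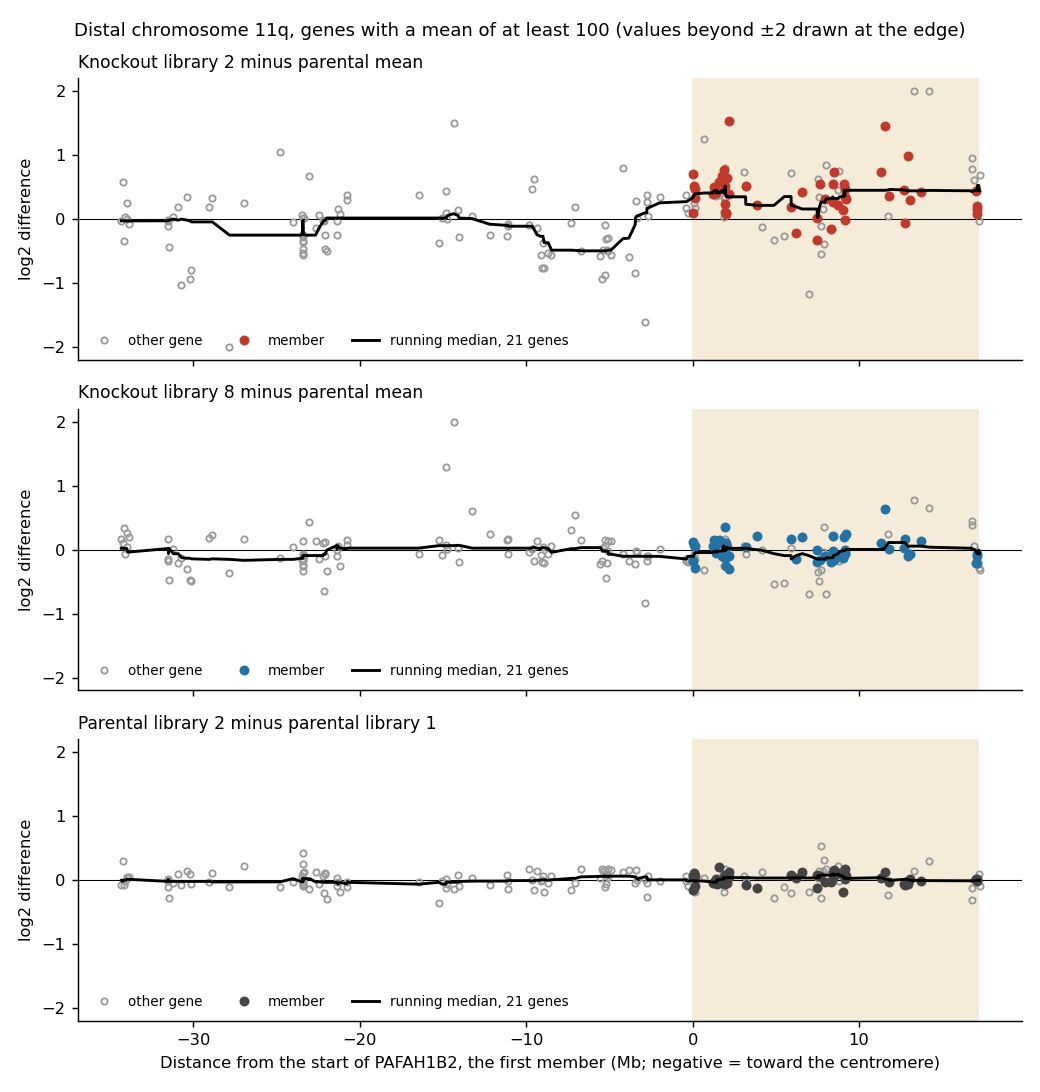
Genes of the distal part of chromosome 11 with a mean of at least 100 by distance in Mb from the start of PAFAH1B2, with the log2 difference on the vertical axis for knockout library 2 and knockout library 8 against the parental mean and for parental library 2 against parental library 1. Filled points are members, open points other genes, the line is the running median of 21 genes and the shaded span is the segment. In knockout library 2 the line reaches -0.50 before the segment and stays between 0.02 and 0.53 within it, where it stays between -0.15 and 0.11 in knockout library 8 and between -0.03 and 0.09 between the parental libraries.

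The highest median of the role groups in knockout library 2, 0.61, was that of a group of 4 genes. It was made up of proteases, an amyloid precursor relative and the platelet-activating factor enzyme PAFAH1B2. Of these, 4 of 4 lay above both parental libraries there, as did 47 of the 54 genes, which were chosen by these values (42.5% of all measured genes). APLP2, a close relative of the amyloid precursor protein, had 25619 normalized counts in knockout library 2 and 11938 in knockout library 8, against 13131 and 12591 in the parental libraries. Knockout library 2 held 1.99 times the parental level while knockout library 8 lay below both parental libraries, as it did in 26 of the 54 genes and 40.8% of all measured genes (log2 0.99, with a 95% counting interval of 0.97 to 1.02, and -0.11). BACE1, the beta-secretase that cuts the amyloid precursor, had 4946 and 2925 normalized counts in knockout libraries 2 and 8, against 3705 and 3459 in the parental libraries. It too lay above both parental libraries in knockout library 2 and below both in knockout library 8, although 43.3% of its annotated exon bases overlap genes on the opposite strand, and the strand setting of the counting is not given in the sources used here. PAFAH1B2, a catalytic subunit of a platelet-activating factor acetylhydrolase, had 8534 and 5696 normalized counts, against 5119 and 5352. PCSK7, a proprotein convertase, lay inside the band at 0.52.

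Glycosylation and the secretory pathway had a median of 0.40 over 8 genes. Above both parental libraries in knockout library 2 lay 8 of 8, as did 47 of the 54 genes. In knockout library 8, 5 of 8 did, against 23 of the 54 genes and 40.2% of all measured genes. HYOU1, an endoplasmic reticulum chaperone of the unfolded protein response, had 18210 normalized counts in knockout library 2 and 11554 in knockout library 8, against 10552 and 10937 in the parental libraries. Both knockout libraries lay above both parental ones, by 0.76 and 0.10 (log2), as they did in 22 of the 54 genes (22.8% of all measured genes). STT3A, the catalytic subunit of an oligosaccharyltransferase, had 9264 and 7347 normalized counts in knockout libraries 2 and 8, against 6264 and 6379. ARCN1, the delta subunit of the COPI vesicle coat, had 14713 and 10693, against 11031 and 11135, so that here only knockout library 2 was above. DPAGT1, which starts the lipid-linked sugar chain of N-glycosylation, was lowest of the group at 0.23. ST3GAL4, a sialyltransferase, C2CD2L, a lipid transfer protein, RNF26, a ubiquitin ligase of the endoplasmic reticulum, and TMEM218, a ciliary membrane protein, lay inside the band.

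The endosome and lysosome group, in which TIRAP and GRAMD1B were also placed, had the lowest median of the role groups in knockout library 2. It was 0.10 over 7 genes, and the group of mitochondria and other enzymes came next at 0.12 over 4 genes. Of the 7, only SNX19 lay at least 0.3 above the parental mean. SORL1, a sorting receptor for the amyloid precursor, had 36.8 normalized counts in knockout library 2 and 28.3 in knockout library 8, against 106 and 108 in the parental libraries. Both knockout libraries lay below both parental ones, at log2 differences of -1.51 and -1.88. VPS11, a core subunit of the HOPS and CORVET tethers, had 2061 and 1741 normalized counts, against 1958 and 1871. Its value in knockout library 2 was 0.11, that of the lysosomal membrane protein SIDT2 was 0.10, that of the Toll-like receptor adaptor TIRAP was -0.02 and that of the sterol transporter GRAMD1B was -0.22. VPS26B, a retromer subunit, had 3207 and 2392 normalized counts, against 2748 and 2789, and lay inside the band at 0.21.

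Chaperone and ubiquitin genes had a median of 0.40 over 5 genes. HSPA8, the constitutive cytosolic HSP70 chaperone, had 41400 normalized counts in knockout library 2 and 40699 in knockout library 8, against 35126 and 37237 in the parental libraries. The knockout libraries lay close together and both above the parental ones, by 0.20 and 0.17. GENCODE lists 17 pseudogenes named after HSPA8, and how reads shared with them were counted is not given in the sources used here. CBL, a ubiquitin ligase for receptor tyrosine kinases, had 5877 and 3910 normalized counts, against 3840 and 3725. USP2, a deubiquitinase, was weakly expressed, with 194 and 63.5 normalized counts, against 63.6 and 76.3 (log2 difference in knockout library 2 of 1.46, 95% counting interval 1.15 to 1.78). UBE4A, a ubiquitin chain elongation factor, lay at 0.40 and TBCEL, a tubulin-binding protein, at 0.22 in knockout library 2.

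Among 10 genes of transcription and chromatin knockout library 2 had a median of 0.48 and knockout library 8 one of 0.11. ETS1 had 3336 and 2151 normalized counts in knockout libraries 2 and 8, against 1966 and 2017 in the parental libraries. FLI1, its neighbour and relative, had 258 and 146, against 88.8 and 97.4. Both ETS genes lay above both parental libraries in each knockout library, ETS1 by 0.74 and 0.11 and FLI1 by 1.46 and 0.64. KMT2A had 6200 and 4834 normalized counts, against 4416 and 4313. BCL9L, a coactivator of beta-catenin, had 5241 and 3083 normalized counts, against 3341 and 3250, with 38.8% of its exon bases overlapped on the opposite strand. The histone gene regulator HINFP (0.08) and PRDM10 (-0.06) lay below the band in knockout library 2, and ZNF202, MSANTD2, ZBTB44 and NFRKB, an INO80 subunit, lay inside it.

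The 6 genes of the cell cycle, the genome and the centrosome had a median of 0.30. CHEK1 had 3115 normalized counts in knockout library 2 and 1677 in knockout library 8, against 1776 and 1985 in the parental libraries. Knockout library 2 was above both parental libraries and knockout library 8 below both, at 0.73 and -0.16. NCAPD3, a condensin II subunit, had 7580 and 4805 normalized counts, against 5533 and 5617, and parted in the same way. EI24, an endoplasmic reticulum protein first described as a p53-induced gene, had 7032 and 5778, against 5621 and 6066, so that knockout library 2 was above both parental libraries and knockout library 8 between them. CEP164, a centriole appendage protein, followed at 0.33, whereas TBRG1, a growth inhibitor known to act with p53, was at 0.02 and THYN1 at 0.09. Of the RNA genes, DDX6, a helicase of mRNA decay, the decapping scavenger enzyme DCPS and FAM118B had 0.58, 0.46 and 0.55, and the pseudouridine synthase genes PUS3 and RPUSD4 had 0.22 and 0.14.

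Among the 54 measured members, MCAM had the largest log2 difference from the parental mean in knockout library 2. It had 34799 normalized counts there and 9721 in knockout library 8, against 11817 and 12262 in the parental libraries. Knockout library 2 held 2.89 times the parental level, and knockout library 8 lay below both parental libraries, at log2 differences of 1.53 (95% counting interval 1.51 to 1.56) and -0.31. Of its exon bases 6.86% overlap CBL on the opposite strand. The other adhesion and cytoskeleton genes lay lower, with PHLDB1, an adaptor at focal adhesions, at 0.44, the guanine nucleotide exchange factor ARHGEF12 at 0.52 and ARHGAP32 at 0.36. FEZ1, a kinesin adaptor, had 1969 and 1926 normalized counts in knockout libraries 2 and 8, against 2222 and 2174, so both knockout libraries were below both parental ones. The 300 bases around the annotated start of MCAM (RefSeq, GRCh38.p14, minus strand, chr11:119317081-119317380) and of SORL1 (plus strand, chr11:121452064-121452363), the genes farthest above and below the shift, and of HYOU1 (minus strand, chr11:119057156-119057455) are printed 5′ to 3′ to show promoters at either end of the range, each 250 bases before the start and 50 after it. Capitals mark letters that match any of the motifs searched on both strands, which were the GC box GGGCGG, the CCAAT box CCAAT, the TATA box TATAAA, the E-box CACGTG and the ETS site CCGGAAGT, none of which contains another. Also searched was 1 spaced form each of the ER stress element (which contains the CCAAT box), the heat shock element and the p53 site (a strict form). These forms stood in 0, 1 (HSPA8) and 0 of the matched windows of the genes, against 0.0769%, 0.490% and 0.373% of all windows. Other forms of these elements were not searched, so 0 does not mean that a window, such as that of HYOU1, lacks the element.
MCAM: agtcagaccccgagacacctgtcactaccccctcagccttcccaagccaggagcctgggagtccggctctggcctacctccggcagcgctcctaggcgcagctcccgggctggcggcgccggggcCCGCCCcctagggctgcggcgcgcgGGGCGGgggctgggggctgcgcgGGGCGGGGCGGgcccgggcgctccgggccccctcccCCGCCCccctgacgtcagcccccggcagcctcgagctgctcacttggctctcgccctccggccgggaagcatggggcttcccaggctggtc
SORL1: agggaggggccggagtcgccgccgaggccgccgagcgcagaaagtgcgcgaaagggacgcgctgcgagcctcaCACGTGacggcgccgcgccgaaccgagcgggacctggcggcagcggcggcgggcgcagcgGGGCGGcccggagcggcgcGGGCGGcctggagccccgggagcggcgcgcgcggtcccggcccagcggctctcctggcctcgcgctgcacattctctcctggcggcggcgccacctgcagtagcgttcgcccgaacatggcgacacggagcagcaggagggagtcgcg
HYOU1: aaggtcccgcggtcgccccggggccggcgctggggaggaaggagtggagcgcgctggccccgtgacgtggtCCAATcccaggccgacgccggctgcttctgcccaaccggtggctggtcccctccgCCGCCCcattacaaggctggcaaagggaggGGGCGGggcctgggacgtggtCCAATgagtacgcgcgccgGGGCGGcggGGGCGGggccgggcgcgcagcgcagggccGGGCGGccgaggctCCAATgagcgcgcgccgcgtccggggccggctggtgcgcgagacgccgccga
The MCAM window holds 5 GC boxes, the HYOU1 window 5 GC boxes and 3 CCAAT boxes, and the SORL1 window 2 GC boxes and 1 E-box, and all 3 have 78% G and C. Promoter windows were matched for 46 of the 54 measured genes. A GC box stood in 76.1% of the 46 (45.0% of all 35116 windows of that length) and an E-box in 23.9% (7.26%). The TATA box stood in 0 of the 46 (11.5%). The 35116 windows are not limited to measured genes, so these shares do not compare like with like. Their median share of G and C was 58.7%, against 78.0%, 64.3% and 61.7% in the genes' windows above, in and below the band. FAM118B and RPUSD4, whose windows overlap, both count among the E-box windows. GC boxes were in 6 of 6 windows above the band, 21 of 29 in it and 8 of 11 below it. A match describes letters and not a site in use.

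Of the 13 genes below the band, SORL1, SIAE, GRAMD1B, FEZ1, TIRAP and PRDM10 lay below both parental libraries in knockout library 2, as 43.5% of all measured genes did. SIAE, a sialic acid acetylesterase, had 976 normalized counts in knockout library 2 and 1077 in knockout library 8, against 1281 and 1180 in the parental libraries. GRAMD1B had 6733 and 7092 normalized counts, against 7761 and 7935. In both, each knockout library was below both parental libraries, by 0.33 and 0.19 for SIAE and by 0.22 and 0.15 for GRAMD1B. Both knockout libraries lay below both parental ones in 5 of the 13, SORL1, SIAE, GRAMD1B, FEZ1 and TIRAP (23.7% of all measured genes). TIRAP had 451 and 456 normalized counts, against 456 and 460, and PRDM10 had 763 and 894, against 816 and 772, so that TIRAP differed by 0.02 or less (log2) between any knockout library and the parental mean. Over SIAE and TBRG1, which overlap tail to tail, 35.0% and 34.5% of the exon bases lie opposite another gene. The other genes below the band were HINFP, VPS11, SIDT2, NLRX1, THYN1, RPUSD4 and TBRG1, at values between 0.02 and 0.14 in knockout library 2. SIDT2 had 1807 and 1500 normalized counts in knockout libraries 2 and 8, against 1784 and 1601 in the parental libraries, and THYN1 had 1621 and 1418, against 1532 and 1519, so that both were highest in knockout library 2 and lowest in knockout library 8. HINFP had 832 and 850 normalized counts, against 775 and 802, both knockout libraries above, and TBRG1 had 2305 and 2254, against 2207 and 2331, both between the parental libraries. NLRX1, a mitochondrial NOD-like receptor, had 1455 and 1143 normalized counts, against 1384 and 1345. The remaining mitochondrial genes, FOXRED1, a complex I assembly factor, and ACAD8, a valine breakdown enzyme, were at 0.35 and 0.16.

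Followers and escapers stood side by side. Within the segment 7 pairs of measured genes with a mean of at least 100 each point away from each other with annotated starts at most 1000 bases apart, and their values in knockout library 2 differed by a median of 0.26, between 0.04 and 0.71, where 949 such pairs over the whole genome had a median of 0.19. FEZ1 and STT3A, at -0.16 and 0.55, count as such a pair only by the outermost GENCODE start of FEZ1, while the RefSeq window of FEZ1 lies at chr11:125496216-125496515 and that of STT3A at chr11:125592602-125592901. Without them the other 6 pairs differed by a median of 0.25, between 0.04 and 0.49. RPUSD4 and FAM118B, at 0.14 and 0.55, share most of their promoter windows, which overlap by 231 bases (chr11:126211601-126211831) on opposite strands. RPUSD4 had 1561 normalized counts in knockout library 2 and 1300 in knockout library 8, against 1515 and 1324 in the parental libraries. FAM118B had 890 and 698 normalized counts, against 592 and 624. Between them, FAM118B was thus above both parental libraries in each knockout library, and RPUSD4 in knockout library 2 only. The value of RPUSD4 was 0.24, inside the band, against parental library 2 alone and 0.04 against parental library 1 alone. The windows are printed because they are nearly the same DNA read from either strand, RPUSD4 on the minus strand (chr11:126211601-126211900) and FAM118B on the plus strand (chr11:126211532-126211831), with the same motifs in capitals.
RPUSD4: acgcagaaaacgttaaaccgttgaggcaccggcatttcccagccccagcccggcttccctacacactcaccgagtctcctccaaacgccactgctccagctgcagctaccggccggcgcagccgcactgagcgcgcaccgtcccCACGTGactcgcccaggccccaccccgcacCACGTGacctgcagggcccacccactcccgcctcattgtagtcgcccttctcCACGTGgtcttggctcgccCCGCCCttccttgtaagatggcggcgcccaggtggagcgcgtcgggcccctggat
FAM118B: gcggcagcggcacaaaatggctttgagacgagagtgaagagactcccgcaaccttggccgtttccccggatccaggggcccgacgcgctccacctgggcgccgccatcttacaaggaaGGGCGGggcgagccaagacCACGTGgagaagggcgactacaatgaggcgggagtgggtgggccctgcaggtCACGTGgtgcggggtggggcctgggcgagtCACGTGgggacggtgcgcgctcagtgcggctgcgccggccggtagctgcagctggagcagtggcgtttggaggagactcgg
Each window holds 3 E-boxes and 1 GC box, and the 3 E-boxes lie in the shared stretch. About 6% of the exon bases of either gene overlap the other (5.95% and 6.32%).

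**Figure D3:**
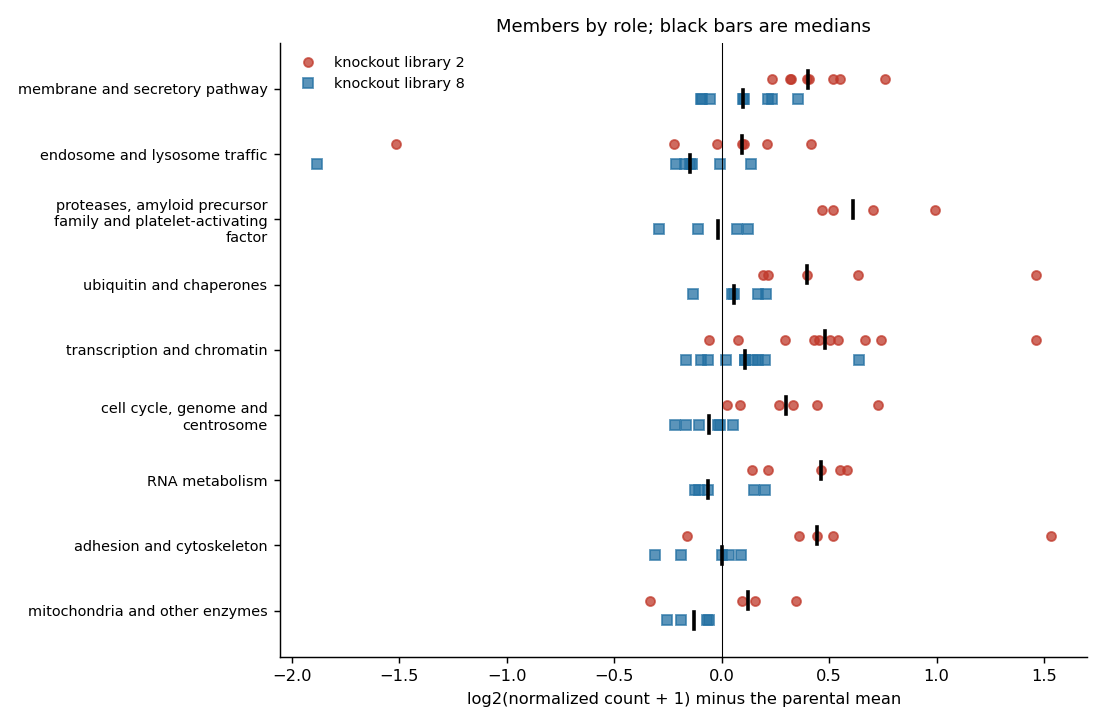
Log2(normalized count + 1) minus the parental mean of the 54 measured genes by role, for knockout library 2 (red circles, upper row of each pair) and knockout library 8 (blue squares, lower row), with black bars at the medians. Medians in knockout library 2 run between 0.10 for the endosome and lysosome group and 0.61 for the group of proteases, amyloid precursor family and platelet-activating factor enzyme.

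Lists of partner genes were set beside 17 of the genes. Partners encode other subunits of the same complexes, act in the same pathways or belong to the same gene family, and lie mostly on other chromosomes. The distal 11q genes were chosen by their values in knockout library 2, so that they exceed their partners follows partly from that choice. The contrast with the partners is a description and was not tested. Over 14 lists with 126 measured partners knockout library 2 had a median of 0.07 and knockout library 8 one of -0.0034. Of the 126 partners, 11 lay at least 0.3 above the parental mean and above both parental libraries in knockout library 2 (8.73%, against 17.8% of all measured genes), and 9 lay as far below and below both. Limma called 0 of them, and DESeq2 called 1 higher, APLP1, and 0 lower. All 11 other oligosaccharyltransferase genes had lower values than STT3A in knockout library 2, with a median of 0.14 and RPN1 highest at 0.25. The 8 other COPI genes had a median of -0.12 and ranged from -0.36 (COPE) to 0.16 (COPA), against 0.41 for ARCN1. For KMT2A at 0.51, the 8 genes listed with it ranged from -0.22 (TASP1) to 0.16 (WDR5). For NFRKB at 0.46, the 14 other INO80 genes had a median of 0.0079.

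For the other lists the distances varied. Condensin II partners of NCAPD3 (0.44) had a median of 0.28 over 4 genes, with SMC4 at 0.40, and chaperones of the endoplasmic reticulum had a median of 0.21 over 12 genes beside HYOU1 at 0.76, with PDIA4 at 0.46. Among 12 genes of the checkpoint kinase pathway the median was 0.09 and CLSPN, which CHEK1 activation needs, was highest at 0.60, although its parental libraries differed by 0.44. The list of the HSP70 chaperone system had a median of 0.14 beside HSPA8 at 0.20, and 7 of its 12 genes lay below HSPA8. For VPS11 at 0.11, the 8 tether partners had a median of -0.13, and for VPS26B at 0.21 the retromer gene VPS35 lay higher at 0.34. The 9 decapping genes beside DDX6 (0.58) had a median of 0.10 and the 2 partners of PAFAH1B2 (0.71) one of 0.12. In the ETS family, the 13 measured relatives of ETS1 and FLI1 had a median of -0.12, between -0.87 (ETV6) and 0.14 (ELK4). Beside BACE1, APLP2 and SORL1, the 10 genes of amyloid precursor processing had a median of 0.05 and APLP1, another member of the precursor family, lay at 1.22 in knockout library 2 and 1.10 in knockout library 8.

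**Figure D4:**
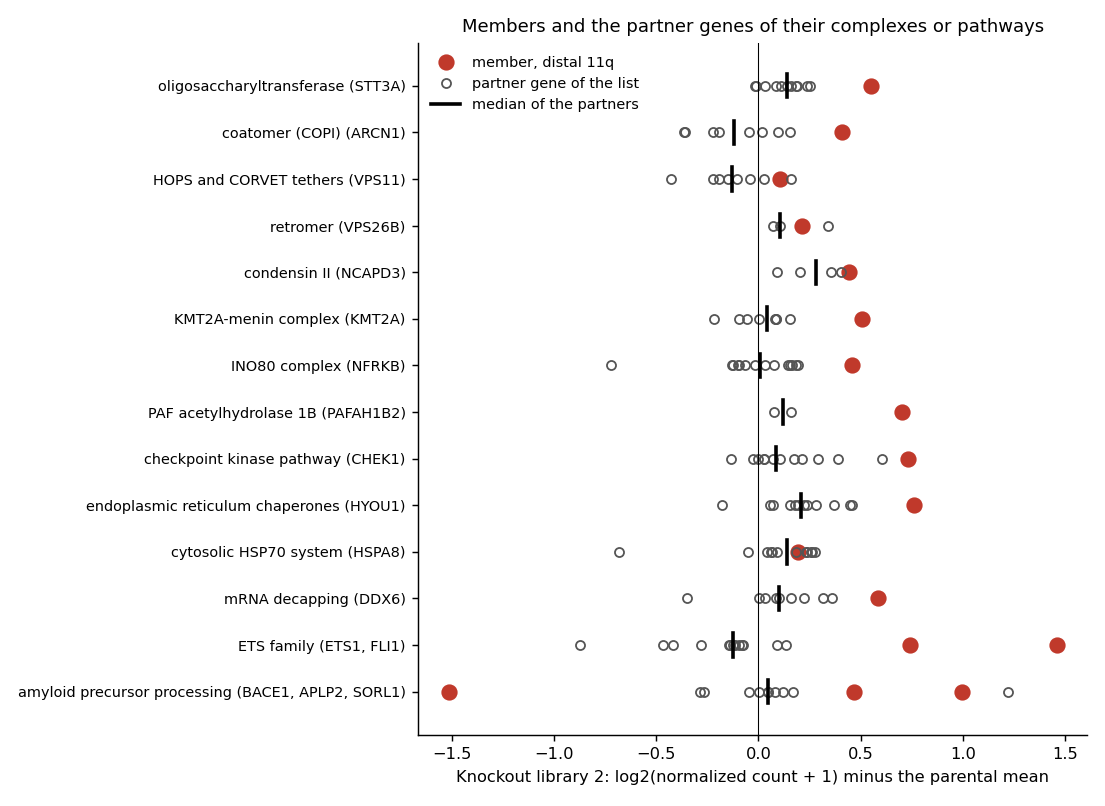
Knockout library 2, log2(normalized count + 1) minus the parental mean, for distal 11q genes (red) and the partner genes of each list (open circles), with black bars at the partners' medians. ARCN1, KMT2A, NFRKB and STT3A, at 0.41 to 0.55, lie to the right of each of their partners. So do NCAPD3, PAFAH1B2, CHEK1, HYOU1, DDX6, ETS1 and FLI1, while HSPA8, VPS26B and VPS11 lie among theirs. The distal 11q genes were chosen by these values, so their place to the right follows partly from that choice.

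Expression levels spanned a wide range. Per kb of annotated exon, HSPA8 was highest at 7462 normalized counts per kb in the parental mean, followed by ARCN1 at 2653, APLP2 at 1723, EI24 at 1642 and MCAM at 1622, and SORL1 was lowest of the measured genes at 5.51. EI24 and MCAM are neighbours in that order that differ by less than the gap between the parental libraries of either gene. The 27 genes with the higher mean counts had a median of 0.46 in knockout library 2 and the 27 with the lower ones a median of 0.22, and in knockout library 8 these medians were 0.05 and -0.07.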

How the data were processed

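RNA of 4 A375 libraries, 2 knockout and 2 parental, was poly(A)-selected and sequenced as strand-specific libraries, per the labels. The deposited table holds a normalized signal per gene and library: read counts divided by 1 factor per library, by the authors, as the values show. Divided by the smallest step of its library, every value came out whole within 0.001 (100% of values), so whole reads were recovered; the factors (0.950, 1.02, 0.912 and 1.14 for knockout 2, knockout 8, parental 1 and parental 2) equalled median-of-ratios factors. The submitters' processing notes name build hg38 and the tools deepTools, DESeq2, HTSeq, Picard and STAR. Strand setting, annotation and handling of multiply aligned reads are not given. The level of the targeted gene is not reported here.

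The numbers 2 and 8 of the knockout columns match no replicate number of the labels. The genes and lists were chosen with earlier results of these data known. Log2 ratios used a pseudocount of 1, which understates differences of weakly expressed genes, and the mean of both parental log2 values. Counting intervals (95%) come from reads alone, and cover counting error only; without molecular identifiers, several reads can come from 1 molecule. Positions and exon lengths came from GENCODE 29. As the table is normalized, limma 3.58.1 with a trend was used over all 15431 measured genes with Benjamini-Hochberg adjustment. The packages edgeR 4.0.16 (quasi-likelihood) and DESeq2 1.42.0 were run on the recovered reads. Each tool was tried on simulated data with the same spread in all libraries, so the larger difference within the knockout pair was not covered. With 2 against 2 libraries an exact permutation p cannot go below 33.3%. Alternatives were other pseudocounts, filters, scalings, limits and leaving out libraries. Values in each library were set for 17 genes by name and the genes outside the band, beside the lowest and highest partners and the 5 genes closest to the median pattern; other genes were named after their values were seen.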

Additional observations from a re-analysis of the deposited data

How the results depend on the processing

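The median of 0.40 of the 54 genes in knockout library 2, the 33 higher genes and the 32 in the band moved by less than the parental SD or by less than 1.5 times with a pseudocount of 0.1 or 5, with TMM or upper quartile factors, reads scaled to the library total, without a filter, and with a mean of at least 100. Without either parental library the median was 0.37 to 0.40, the higher genes 32 to 35 and the genes in the band 32 to 34. Chosen after seeing the data, knockout library 8 as the reference gave 0.35 and 33 genes, and the 39 genes without exon overlap on the opposite strand a median of 0.35 (0.348), with 23 higher. A minimum log2 ratio of 0.5 left 18 of the 33 higher genes, and bands of 0.15 and 0.4 held 22 and 44 genes. The median of the other segment genes, 0.35, was 0.41 (0.409) with a mean of at least 100 and 0 without a filter, over 131 genes. Of 270 values of single genes recomputed with another pseudocount or scaling, 2, both of SORL1, moved by more than the gene's own parental SD, and the largest move was 0.0926. Leaving out a parental library moves a value by a fixed part of the parental gap, at most by 0.13 (USP2). Against the same band limits, SIDT2 (0.17) and RPUSD4 (0.24) then lay in the band and CBL (0.66) above it without parental library 1, and DDX6 (0.68) above it without parental library 2. Over all genes, limma's 0 calls became 398 with DESeq2 and ranged between 0 and 5023 when 1 library was left out: 5023 without knockout library 8, 2896 without knockout library 2 and 0 without either parental library, where the lone knockout or parental library is assumed to vary like the other group. No paired analysis was possible because the knockout columns do not carry the labels' replicate numbers. The shift rests on 1 knockout library.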

Other observations

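Among the 50 measured segment genes that are no members, values in knockout library 2 ranged from -1.55 to 2.89. The genes below were picked after their values were seen, and no test was made. NTM, neurotrimin, a neural adhesion molecule, had 4285 normalized counts in knockout library 2 and 906 in knockout library 8, against 520 and 642 in the parental libraries. ADAMTS15, a secreted protease of the extracellular matrix, had 608 and 244, against 135 and 149. Both genes lay above both parental libraries in each knockout library. JAM3, a junctional adhesion molecule, had 5425 and 3688 normalized counts, against 3557 and 3545, and was at 0.61 and 0.05 (log2). VWA5A, in the middle of the segment, had 542 and 757 normalized counts, against 1303 and 1148, and lay below both parental libraries in each knockout library.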
